A study of Mus musculus with 12 samples.

Results

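The 10 genes described here encode enzymes and a carrier of acetate and acetyl-CoA use, which activate acetate, supply acetyl-CoA from citrate, make or remove malonyl-CoA, and build and desaturate fatty acids. They were taken by name from a working list, Acss1, Acss2, Acly, Acaca, Acacb, Fasn, Scd1, Scd2, Slc25a1 and Mlycd, and all 10 were among the 23183 gene symbols listed. Their transcripts were measured by mRNA sequencing of kidney cortex from male mice labelled C57BL/6, and C57BL/6N in the methods for the operation, in 4 groups of 3 libraries. The groups were the obstructed kidney (UUO) and the contralateral kidney (CL) of wild-type (Acot12+/+) mice, and the same kidneys of Acot12-/- (mutant) mice, all taken on day 7 after unilateral ureteral obstruction of mice aged 6 to 7 weeks. Unilateral ureteral obstruction ties off 1 ureter, so that the kidney on that side scars while the other kidney keeps draining. The CL kidney is the unobstructed kidney of an operated mouse, and no kidney of an unoperated mouse was analysed here. The Acot12 mutation was induced with an engineered nuclease and is carried by every cell of the mouse, so its effects are not limited to the kidney. Values are FPKM, fragment counts normalised for transcript length and library size, which allows levels of different genes to be compared per length.

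ACOT12, which the authors of the study place in the cytosol and peroxisomes, is a thioesterase that splits acetyl-CoA into acetate and coenzyme A. The reverse step is carried out by acyl-CoA synthetase short-chain family members, ACSS2 in the cytosol and nucleus and ACSS1 in mitochondria. Most cytosolic acetyl-CoA comes from citrate, which the carrier SLC25A1 exports from mitochondria and ATP citrate lyase (ACLY) cleaves. The acetyl-CoA carboxylases ACACA and ACACB make malonyl-CoA, fatty acid synthase (FASN) builds palmitate from it, and the stearoyl-CoA desaturases SCD1 and SCD2 introduce a double bond. Malonyl-CoA made by ACACB at the mitochondrial surface inhibits fatty acid import into mitochondria, and malonyl-CoA decarboxylase (MLYCD) removes it. The proximal tubule, which makes up most of the cortex, burns fatty acids as its main fuel.

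The comparison of obstructed with contralateral kidneys asks what obstruction does to each step of this pathway. Transcripts of both acetate-activating enzymes, of ACLY, of ACACB and of MLYCD were lower in UUO than in CL kidneys in both genotypes, and that of SCD1 was called lower in Acot12-/- mice. Those of ACACA, FASN, SCD2 and SLC25A1 did not pass the test in either genotype. The comparison of genotypes asks what loss of ACOT12 does. None of the 10 genes was called different between Acot12-/- and Acot12+/+ mice. Acss1 and Acss2 were higher in every Acot12-/- CL library than in any Acot12+/+ CL library, as were 8.6% of all genes tested.

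The start regions of 4 of the genes are shown because Acss1, Acss2 and Acly fell with obstruction and Slc25a1, which acts just before Acly, did not pass the test. Each line gives the 250 bases before the transcription start as listed by RefSeq on build GRCm38.p6, 5′ to 3′ on the coding strand. Capitals mark the GC box GGGCGG, the CCAAT box, whose name gives its letters, and the E-box, each read on either strand. The E-box is CACGTG.
Acss1, chr2:150668241-150668490, minus strand: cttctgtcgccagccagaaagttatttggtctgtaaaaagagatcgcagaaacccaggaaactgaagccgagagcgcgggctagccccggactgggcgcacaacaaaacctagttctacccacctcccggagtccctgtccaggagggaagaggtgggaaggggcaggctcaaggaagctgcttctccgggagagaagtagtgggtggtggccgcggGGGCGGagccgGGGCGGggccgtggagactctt
Acss2, chr2:155517793-155518042, plus strand: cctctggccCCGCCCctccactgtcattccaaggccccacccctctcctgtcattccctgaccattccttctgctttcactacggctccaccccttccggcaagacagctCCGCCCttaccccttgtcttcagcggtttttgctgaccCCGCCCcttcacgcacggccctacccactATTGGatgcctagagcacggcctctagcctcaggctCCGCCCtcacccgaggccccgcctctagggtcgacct
Acly, chr11:100528001-100528250, minus strand: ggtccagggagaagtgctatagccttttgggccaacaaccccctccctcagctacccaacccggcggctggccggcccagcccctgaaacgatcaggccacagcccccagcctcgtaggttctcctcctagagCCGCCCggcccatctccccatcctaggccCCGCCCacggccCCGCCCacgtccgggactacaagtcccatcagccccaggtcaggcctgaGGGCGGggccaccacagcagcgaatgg
Slc25a1, chr16:17928220-17928469, minus strand: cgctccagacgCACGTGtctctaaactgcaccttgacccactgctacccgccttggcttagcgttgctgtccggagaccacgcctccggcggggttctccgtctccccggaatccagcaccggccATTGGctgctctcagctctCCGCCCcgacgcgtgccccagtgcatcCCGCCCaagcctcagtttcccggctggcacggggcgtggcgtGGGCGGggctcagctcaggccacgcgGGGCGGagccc
Start regions were at hand for 8 of the 10 genes, not for Scd1 and Scd2. Over the whole window of 300 bases, which runs 50 bases past the start, GC boxes were present in Acss1, Acss2, Acly and Slc25a1, against 35.7% of all 32851 windows. CCAAT boxes were present in Acss2, Acly, Acacb, Fasn, Slc25a1 and Mlycd, against 37.4% of windows. An E-box was present only in Slc25a1 of the 8, at position -239 from the start, against 7.15% of windows. Neither the sterol regulatory element TCACNCCAC, held by 1.24% of windows, nor a direct repeat of AGGTCA spaced by 1 base, held by 0.0396%, was found in any of the 8. The 250 bases shown for Acss1, and part of those for Acss2, lie inside the genes as GENCODE annotates them. The windows of Acaca and Acacb do too, downstream of their first annotated exon. They had a GC content of 39.7% and 51.7%, against 64.3% to 69.3% for the other 6 genes and a median of 52.7% over all windows. These matches describe the letters in the windows only.

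The depth of the libraries, worked out from the steps between low FPKM values, was about 12300000 to 16200000 fragments in CL libraries and 18500000 to 23000000 in UUO libraries. The lowest value of any of the 10 genes, that of Acacb in an obstructed kidney, rested on about 130 fragments. Acot12 itself was lower in Acot12-/- mice, at 9.15, 9.01 and 6.80 FPKM in CL kidneys against 73.8, 52.7 and 78.1 FPKM in Acot12+/+ CL kidneys (log2 fold change -2.88, adjusted p = 0.000969, limma). In UUO kidneys it was 3.28, 1.80 and 3.86 FPKM against 9.98, 16.7 and 21.2 FPKM (log2 fold change -2.07, adjusted p = 0.0459), a call lost without 11 of the 12 libraries in turn, when only UUO libraries were fitted (adjusted p = 0.355), with a pseudocount of 0.1 (0.0858), without either filter (0.103 and 0.0536) and with the replicate number as a block (0.0657). Acot12 was therefore lower in each mutant library than in any wild-type library of the same side, with some transcript left. The library Acot12-/- CL replicate 2 stood apart from the other 2 of its group, at -52.3 on the second principal component (9.46% of the variance) against 22.2 and 33.0. Replicates of the other 3 groups correlated at r = 0.974 to 0.992 over the tested genes, and those of Acot12-/- CL at 0.942 to 0.984. Libraries are numbered 1 to 3 in each group, with no statement that each number is a separate mouse, so that p-values measure the spread between these libraries, which may be technical.

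Proximal tubule markers were detected in every library, and their sum without Kap fell with obstruction. With Kap, the sums of contralateral and obstructed kidneys overlapped in both genotypes, at 3865 to 193459 and 7855 to 28315 FPKM in wild-type mice. Without Kap, which was listed at 0 in some libraries and at up to 189588 FPKM in another, the other 13 markers summed to 3865 to 5275 FPKM in contralateral and 583 to 1391 FPKM in obstructed wild-type kidneys. The sums in Acot12-/- mice were 3854 to 7632 FPKM in contralateral and 359 to 1550 FPKM in obstructed kidneys. Of 13 proximal tubule markers tested, 12 were called lower with UUO in Acot12+/+ and 13 in Acot12-/- mice. Injured tubule markers summed to 1080 to 3126 FPKM in contralateral and 15879 to 17569 FPKM in obstructed wild-type kidneys, and macrophage markers to 168 to 189 and 721 to 860 FPKM. Lymphocyte and fibroblast markers were likewise higher with UUO and other tubule markers lower, without overlap in either genotype. Endothelial markers summed to 140 to 233 FPKM in contralateral and 119 to 155 FPKM in obstructed wild-type kidneys, with overlap. In mutant mice they summed to 48.8 to 76.7 and 136 to 176 FPKM, higher with UUO. The change with UUO was called different between genotypes for 0 of the 8 endothelial markers. Adipocyte markers, looked at because fat makes the same enzymes, summed to 617 to 816 FPKM in contralateral and 297 to 352 FPKM in obstructed wild-type kidneys, and to 683 to 1191 and 288 to 494 FPKM in those of the mutant. That sum rested on Pck1 and Fabp4, which tubule and endothelium also make. Adipoq was at most 1.62 FPKM, Plin1 at most 0.35 FPKM and Lep at most 0.024 FPKM in any library, and Plin1 and Lep were at 0 in all UUO libraries. Cfd reached 15.1, Cidea 4.36 and Ucp1 1.09 FPKM in an Acot12+/+ CL library, against medians of 0.20, 0.08 and 0.05 FPKM in that group. The part of these cell types in the changes described below was not tested. In bulk tissue, fewer cells of a type and less RNA per cell cannot be told apart.

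Acss2, the cytosolic acetate-activating enzyme (chromosome 2, 155517948 to 155585724 on mm10), had the highest mean level of the 10 genes in CL kidneys of both genotypes. It was at 105, 73.5 and 98.7 FPKM in contralateral and 24.9, 22.7 and 31.0 FPKM in obstructed wild-type kidneys. Mutant mice had 138, 109 and 119 FPKM in contralateral and 38.8, 22.4 and 27.9 FPKM in obstructed kidneys. Every obstructed kidney was therefore well below every contralateral kidney. The mean in UUO was 28.4% of that in CL in Acot12+/+ (26.2 ± 4.33 against 92.5 ± 16.8 FPKM, SD, n = 3 each) and 24.3% in Acot12-/- mice (29.7 ± 8.34 against 122 ± 14.9 FPKM). The log2 fold changes of FPKM + 1 were -1.78 ± 0.22 (SE, adjusted p = 6.16e-05, limma) and -2.03 ± 0.22 (adjusted p = 1.49e-05).

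Acss1, the mitochondrial acetate-activating enzyme (chromosome 2, 150618105 to 150668500), fell in the same way from a lower level. Its values were 39.8, 60.2 and 52.0 FPKM in contralateral and 16.2, 12.6 and 16.4 FPKM in obstructed wild-type kidneys. In mutant mice the values were 113, 90.8 and 85.6 FPKM in contralateral and 24.0, 12.6 and 26.2 FPKM in obstructed kidneys. No obstructed kidney reached the lowest contralateral kidney of its genotype. The mean in UUO was 29.7% of that in CL in Acot12+/+ (log2 fold change -1.68 ± 0.25, SE, adjusted p = 0.000249) and 21.7% in Acot12-/- mice (-2.20 ± 0.25, adjusted p = 2.43e-05). The ratio of Acss1 to Acss2 within a library averaged 0.57, 0.58, 0.79 and 0.71 in Acot12+/+ CL, Acot12+/+ UUO, Acot12-/- CL and Acot12-/- UUO kidneys, and the UUO and CL libraries overlapped in both genotypes. Longest coding transcripts of Acss1 and Acss2 share no stretch of 50 bases. Exons of Acss2 overlap, on the opposite strand, those of Acss2os, Ggt7 and Gss over 1.94% to 3.89% of their bases, and exons of Acss1 those of E130215H24Rik over 2.74%, and whether reads were counted by strand is not given in the sources used here.

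Slc25a1, the mitochondrial citrate carrier (chromosome 16, 17925223 to 17928219), did not pass the test in either genotype with the values as deposited. It was at 51.1, 59.7 and 70.0 FPKM in contralateral and 58.2, 59.2 and 65.4 FPKM in obstructed wild-type kidneys (log2 fold change 0.03, 95% confidence interval -0.69 to 0.74). The mutant had 98.2, 36.5 and 110 FPKM in contralateral and 63.1, 50.5 and 69.3 FPKM in obstructed kidneys (log2 fold change -0.28, 95% confidence interval -0.99 to 0.44). In CL kidneys of Acot12-/- mice, replicate 2 was thus the lowest and the other 2 the highest of all 12 libraries. Without that replicate the fall with UUO in Acot12-/- mice was called (-0.77, adjusted p = 0.0018). With library totals over all symbols made equal it was called higher in Acot12+/+ mice (0.75, adjusted p = 0.0426), where the median of all genes shifted by 0.62. Slc25a1 had the highest mean of the 10 genes in obstructed kidneys of both genotypes, and its libraries did not overlap those of the next gene.

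Acly, which cleaves citrate to acetyl-CoA and oxaloacetate (chromosome 11, 100476353 to 100528000), fell by less than the acetate-activating enzymes. Its values were 37.2, 46.7 and 37.9 FPKM in contralateral and 26.7, 29.8 and 22.5 FPKM in obstructed wild-type kidneys. They were 36.2, 38.3 and 46.5 FPKM in contralateral and 25.0, 28.4 and 20.2 FPKM in obstructed Acot12-/- kidneys. The obstructed and contralateral kidneys did not overlap in either genotype. The mean in UUO was 64.7% of that in CL in Acot12+/+ (log2 fold change -0.61 ± 0.17, SE, adjusted p = 0.0127) and 60.8% in Acot12-/- mice (-0.70 ± 0.17, adjusted p = 0.00479). The call in Acot12+/+ was lost without Acot12+/+ CL replicate 2 (adjusted p = 0.0565) or Acot12+/+ UUO replicate 3 (adjusted p = 0.0585). In both genotypes it was lost when every library was brought to an equal FPKM total over all symbols, where the median of all genes shifted by 0.62 in Acot12+/+ and 0.44 in Acot12-/- mice and Acly stood at 0.10 and -0.17, below that median. With totals over the tested genes made equal it was also lost in both (-0.01, adjusted p = 0.969, and -0.22, adjusted p = 0.35).

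**Figure D1:**
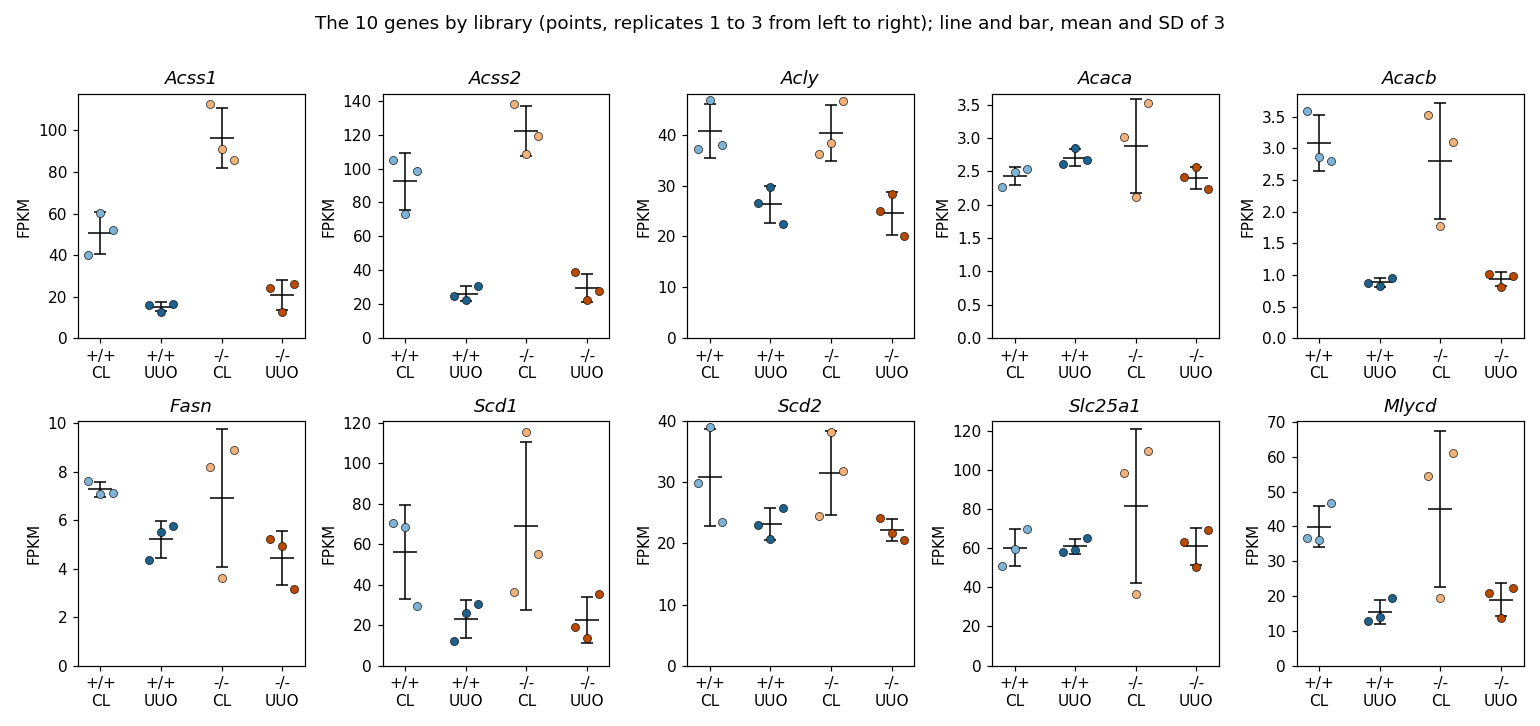
FPKM of each of the 10 genes in the 12 libraries, 1 panel a gene, with Acot12+/+ CL, Acot12+/+ UUO, Acot12-/- CL and Acot12-/- UUO kidneys from left to right. Points are libraries and the line and bar give the mean and SD of 3. Acss1, Acss2, Acly and Acacb lie lower in every UUO library than in any CL library of either genotype, and Slc25a1 and Mlycd show 1 low Acot12-/- CL library.

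Of the 2 acetyl-CoA carboxylases, Acacb was called lower with obstruction and Acaca was not called. Acacb, the carboxylase of the mitochondrial surface (chromosome 5, 114146535 to 114250761), was at 3.60, 2.86 and 2.81 FPKM in contralateral and 0.870, 0.824 and 0.953 FPKM in obstructed wild-type kidneys. It was at 3.53, 1.77 and 3.10 FPKM in contralateral and 1.02, 0.803 and 0.977 FPKM in obstructed Acot12-/- kidneys. The highest obstructed kidney was below the lowest contralateral kidney. The mean in UUO was 28.6% of that in CL in Acot12+/+ and 33.4% in Acot12-/- mice. On the scale of FPKM + 1, which understates the change of a gene this low, the log2 fold changes were -1.11 ± 0.17 (SE, adjusted p = 0.00027) and -0.95 ± 0.17 (adjusted p = 0.00059).

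Acaca, the cytosolic carboxylase that supplies fatty acid synthase (chromosome 11, 84129672 to 84401651), was at 2.27, 2.49 and 2.54 FPKM in contralateral and 2.61, 2.85 and 2.67 FPKM in obstructed wild-type kidneys. The Acot12+/+ groups did not overlap, but the difference was small (log2 fold change 0.11, 95% confidence interval -0.19 to 0.42, adjusted p = 0.535). Mutant mice had 3.01, 2.12 and 3.52 FPKM in contralateral and 2.41, 2.57 and 2.24 FPKM in obstructed kidneys, with overlap (log2 fold change -0.17, 95% confidence interval -0.48 to 0.13). Acaca was the only one of the 10 genes higher in every Acot12+/+ UUO library than in any Acot12+/+ CL library, where 35.5% of all 13243 genes tested were. With library totals made equal it was called higher in Acot12+/+ mice (0.64, adjusted p = 0.0046), a value close to the shift of the median of all genes.

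The ratio of Acaca to Acacb within a library does not depend on the scaling of that library. It was 0.63, 0.87 and 0.90 in contralateral and 3.00, 3.46 and 2.80 in obstructed wild-type kidneys. It was 0.85, 1.20 and 1.14 in CL and 2.36, 3.20 and 2.29 in UUO kidneys of Acot12-/- mice. The transcripts of the carboxylases were thus at comparable levels per length in contralateral kidneys, and that of Acaca was the more abundant in each of the 6 obstructed kidneys. Means were 0.80 ± 0.15 and 3.08 ± 0.34 in Acot12+/+ and 1.06 ± 0.18 and 2.62 ± 0.50 in Acot12-/- mice (SD, n = 3 each). No test was run on the ratios.

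Mlycd, which removes malonyl-CoA (chromosome 8, 119394878 to 119411102), was lower with obstruction as Acacb was. It was at 36.7, 36.2 and 46.6 FPKM in contralateral and 12.9, 13.9 and 19.5 FPKM in obstructed wild-type kidneys, without overlap. In mutant mice the values were 54.5, 19.4 and 61.2 FPKM in contralateral and 20.9, 13.6 and 22.3 FPKM in obstructed kidneys, where CL replicate 2 fell among the obstructed kidneys. The log2 fold changes were -1.33 ± 0.36 (SE, adjusted p = 0.00951) in Acot12+/+ and -1.08 ± 0.36 (adjusted p = 0.0232) in Acot12-/- mice. Without Acot12-/- CL replicate 2 the latter was -1.59 (adjusted p = 0.000145). The call in Acot12-/- mice was lost without CL replicate 1, CL replicate 3 or UUO replicate 2 of that genotype (adjusted p = 0.0895, 0.0914 and 0.0963) and when only Acot12-/- libraries were fitted (adjusted p = 0.0707). With library totals over all symbols made equal the call was lost in both genotypes (-0.62, adjusted p = 0.106, and -0.55, adjusted p = 0.159). With totals over the tested genes made equal it was lost in Acot12-/- mice only (-0.61, adjusted p = 0.1). The ratio of Mlycd to Acacb averaged 13.2 and 17.4 in Acot12+/+ and 15.4 and 20.1 in Acot12-/- CL and UUO kidneys, with overlap in both genotypes.

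**Figure D2:**
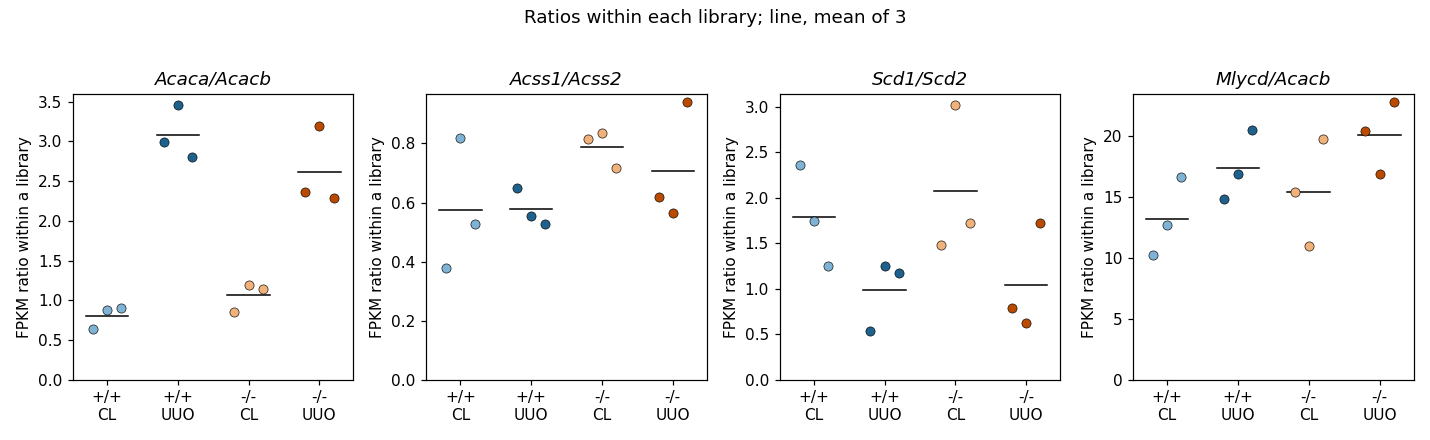
Ratios of FPKM within each library (y axes, from 0) for Acaca to Acacb, Acss1 to Acss2, Scd1 to Scd2 and Mlycd to Acacb in the 4 groups. Points are libraries and lines the means of 3. The Acaca to Acacb ratio lies between 0.63 and 1.20 in the CL and between 2.29 and 3.46 in the UUO kidneys, the Scd1 to Scd2 ratios of Acot12+/+ mice just miss overlap, and the other ratios overlap between kidneys.

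Fasn, which builds palmitate (chromosome 11, 120805846 to 120824547), was low in cortex. It was at 7.63, 7.08 and 7.10 FPKM in contralateral and 4.35, 5.51 and 5.75 FPKM in obstructed wild-type kidneys, so that the groups did not overlap. The change was not called with the spread of all 4 groups (log2 fold change -0.42 ± 0.26, SE, adjusted p = 0.197). It was called when only the Acot12+/+ libraries were fitted (adjusted p = 0.0111) or without Acot12-/- CL replicate 2 (adjusted p = 0.0322). Values in Acot12-/- mice were 8.17, 3.63 and 8.90 FPKM in contralateral and 5.22, 4.92 and 3.14 FPKM in obstructed kidneys (log2 fold change -0.49, adjusted p = 0.13), with replicate 2 below 2 of the 3 obstructed kidneys. Without that replicate the change was -0.83 (adjusted p = 0.0015).

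Scd1, a stearoyl-CoA desaturase that introduces a double bond into saturated fatty acids (chromosome 19, 44394455 to 44407879), varied more between replicates than any other of the 10 genes, with a coefficient of variation of 41.0% to 60.1% within groups. It was at 70.4, 68.3 and 29.3 FPKM in contralateral and 12.3, 25.8 and 30.3 FPKM in obstructed wild-type kidneys. The mutant had 36.4, 116 and 54.9 FPKM in contralateral and 19.0, 13.6 and 35.4 FPKM in obstructed kidneys. The mean in UUO was 40.8% of that in CL in Acot12+/+ mice, with overlap, and the change was not called (log2 fold change -1.25 ± 0.49, SE, adjusted p = 0.0538). It was 32.8% in Acot12-/- mice, without overlap, and was called (-1.51 ± 0.49, adjusted p = 0.0213). The latter call was lost without Acot12-/- CL replicate 2, the library with the highest value (-1.06, adjusted p = 0.0794), or without Acot12-/- UUO replicate 1 or 2 (adjusted p = 0.0574 and 0.0907). It was lost too with library totals made equal (-0.98, adjusted p = 0.0583). The change in Acot12+/+ mice was called without Acot12+/+ CL replicate 3 or UUO replicate 3 (adjusted p = 0.0246 and 0.0499), and without Acot12-/- CL replicate 1, CL replicate 2 or UUO replicate 3, which enter only through the shared spread (adjusted p = 0.0455, 0.0281 and 0.0486). That change was called too when only the Acot12+/+ libraries were fitted (adjusted p = 0.0323).

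Scd2, its neighbour on chromosome 19 (44293674 to 44306864), was at 29.9, 39.1 and 23.4 FPKM in contralateral and 23.0, 20.7 and 25.8 FPKM in obstructed wild-type kidneys. Mutant mice had 24.6, 38.3 and 31.9 FPKM in contralateral and 24.1, 21.7 and 20.6 FPKM in obstructed kidneys, which did not overlap by a narrow margin. Neither change was called (log2 fold change -0.37, adjusted p = 0.15, and -0.47, adjusted p = 0.0662). The call in Acot12-/- mice was made without Acot12-/- CL replicate 1 (adjusted p = 0.024) or without Acot12+/+ CL replicate 2 (adjusted p = 0.0494). Scd1 exceeded Scd2 in all 6 CL kidneys, with ratios of 1.25 to 3.02, and the ratio was 0.54 to 1.72 in UUO kidneys, all below the CL ratios of the same genotype in Acot12+/+ mice, by a narrow margin, and overlapping them in Acot12-/- mice. Longest coding transcripts of Scd1 and Scd2 share 3.03% of their stretches of 50 bases, so a small part of their reads could have been split between them or given to Scd3 or Scd4.

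Of the 10 genes, 5 were called lower with UUO and 0 higher in Acot12+/+ mice, where 23.9% of all genes tested were called lower and 23.6% higher. In Acot12-/- mice 6 were called lower and 0 higher, where 27.2% of all genes were called lower and 26.6% higher. The median log2 fold change of the 10 was -0.86 in Acot12+/+ and -0.82 in Acot12-/- mice, against 0.01 and -0.01 over all genes tested. The libraries did not overlap for 6 genes that were lower in UUO in Acot12+/+ mice and for 6 in Acot12-/- mice, where 35.8% and 27.6% of all genes were lower without overlap. With library totals over all symbols made equal, the calls over all genes moved from 3129 higher and 3161 lower to 7427 and 1047 in Acot12+/+ mice, and from 3518 and 3596 to 6078 and 1552 in Acot12-/- mice. Of the 10 genes, 3 were then called lower in each genotype, and Acaca and Slc25a1 were called higher in Acot12+/+ mice. Acss1, Acss2 and Acacb were called lower in both genotypes with each scaling tried and with any 1 library left out. Within the 6 pairs of kidneys that share a genotype and number, Acss1, Acss2, Acly, Acacb and Mlycd were lower in UUO in 6 of 6, Fasn, Scd1 and Scd2 in 5, Slc25a1 in 4 and Acaca in 2. The share of all genes lower in 6 of 6 pairs was not counted, so whether these counts are unusual cannot be told.

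**Figure D3:**
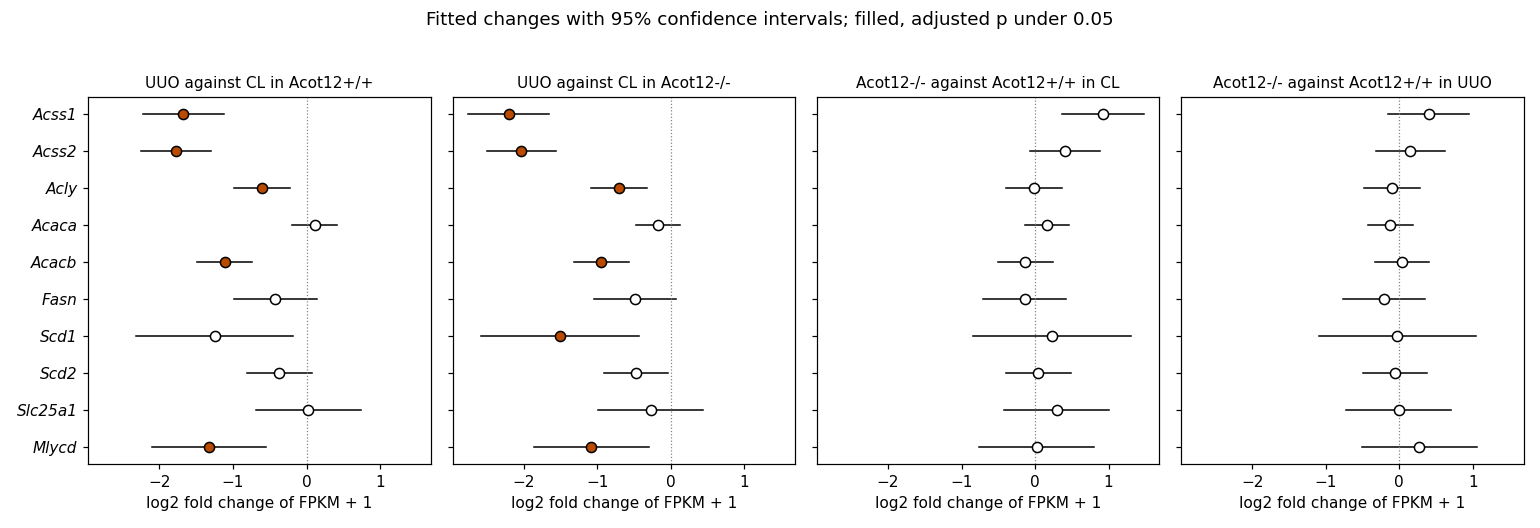
Log2 fold changes of FPKM + 1 (x axis) of the 10 genes in 4 comparisons, with 95% confidence intervals from the limma fit and filled points where the adjusted p was under 0.05. Filled points are 5 in Acot12+/+ and 6 in Acot12-/- mice for UUO against CL, all lower, and 0 between genotypes. The interval of Acss1 between genotypes in CL kidneys runs from 0.37 to 1.48.

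Between genotypes in CL kidneys, 0 of the 10 genes were called by limma, where 4.48% of all genes were called in either direction, and 1 had an unadjusted p under 0.05. That gene was Acss1, whose mean was 96.4 ± 14.4 FPKM in Acot12-/- and 50.7 ± 10.3 FPKM in Acot12+/+ CL kidneys (SD, n = 3 each). Its lowest Acot12-/- library, at 85.6 FPKM, lay above the highest Acot12+/+ library, at 60.2 FPKM. In the limma fit the log2 fold change was 0.92 with a 95% confidence interval of 0.37 to 1.48 (adjusted p = 0.0636). It was called in 3 of 21 alternative fits. These were without Acot12-/- CL replicate 2 (0.96, adjusted p = 0.0354), without Acot12-/- UUO replicate 2 (adjusted p = 0.0211) and with library totals over all symbols made equal (0.93, adjusted p = 0.0462). It was not called with totals over the tested genes made equal. Without other single libraries the adjusted p rose to 0.241 at most. Acss2 was also higher in every Acot12-/- than in any Acot12+/+ CL library, by 0.41 on the log2 scale (95% confidence interval -0.06 to 0.88, adjusted p = 0.378). These were the 2 genes of the 10 without overlap upwards, as were 8.6% of all genes.

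The other 8 genes overlapped between genotypes in CL kidneys. Their log2 fold changes ran from -0.14 for Fasn to 0.29 for Slc25a1, and the widest interval was that of Scd1 (-0.84 to 1.30). The library Acot12-/- CL replicate 2 was at 33.5% to 64.8% of the mean of the other 2 libraries of its group for Mlycd, Slc25a1, Fasn, Acacb and Acaca, and at 253% for Scd1. For Acss1, Acly, Acss2 and Scd2 it was at 91.6%, 92.8%, 84.5% and 136%. Without it Slc25a1 was called higher in Acot12-/- CL kidneys (0.79, adjusted p = 0.0097), and its other values, 98.2 and 110 FPKM, lay above all Acot12+/+ CL values. Markers of other cell types moved with genotype in CL kidneys. Macrophage markers summed to 57.6 to 126 FPKM in Acot12-/- against 168 to 189 FPKM in Acot12+/+ CL kidneys, endothelial markers to 48.8 to 76.7 against 140 to 233 FPKM, and fibroblast markers to 51.1 to 117 against 149 to 191 FPKM. Of these lists 4 of 10, 6 of 8 and 3 of 10 genes were called lower, where 3.36% of all genes were, and 1 of 13 proximal tubule markers was called higher, where 1.12% were. Of those 13 markers, 12 were higher in Acot12-/- CL kidneys, with a median log2 fold change of 0.38 against 0.008 over all genes tested. When only the CL libraries were fitted, 0 genes of any marker list were called, and over all genes Acot12 alone was. Their part in the levels of Acss1 and Acss2 was not tested.

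**Figure D4:**
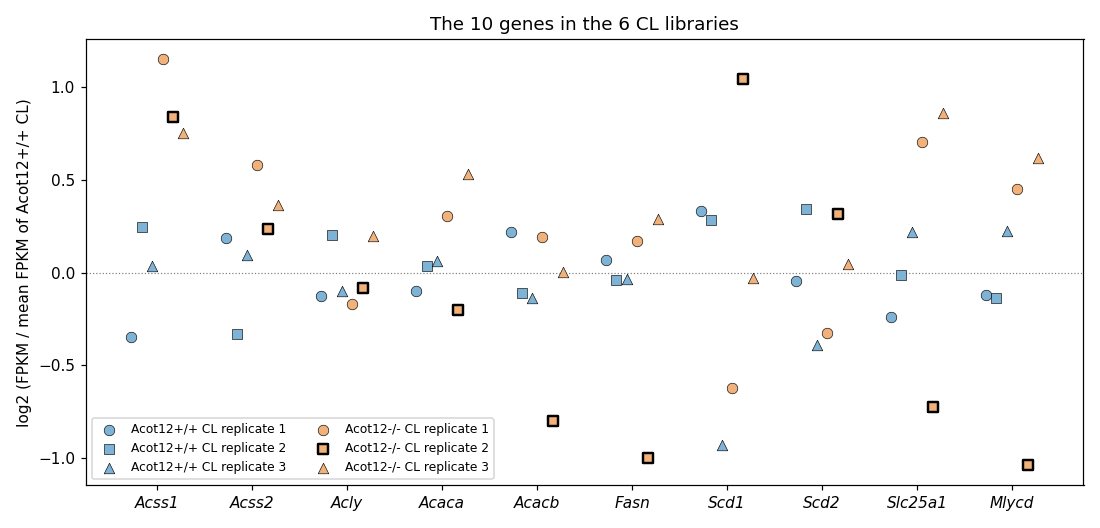
Level of each of the 10 genes in the 6 CL libraries as log2 of FPKM over the mean of the 3 Acot12+/+ CL libraries (y axis), with Acot12+/+ in blue, Acot12-/- in orange and replicates by shape. The square with a thick edge is Acot12-/- CL replicate 2, which is the lowest of the 6 for Acaca, Acacb, Fasn, Slc25a1 and Mlycd and the highest for Scd1. All 3 Acot12-/- libraries lie above the Acot12+/+ libraries for Acss1 and Acss2 only.

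Between genotypes in UUO kidneys, limma called 0 of the 10 genes, where 0.0151% of all genes were called, and 0 had an unadjusted p under 0.05. The adjusted p was 1.00 for each. Acss1 was at 24.0, 12.6 and 26.2 FPKM in Acot12-/- and 16.2, 12.6 and 16.4 FPKM in obstructed wild-type kidneys, a log2 fold change of 0.40 with an interval of -0.16 to 0.95. Acaca was the only one without overlap, lower in Acot12-/- by a small amount (log2 fold change -0.12, 95% confidence interval -0.43 to 0.18), where 6.48% of all genes were lower without overlap. The change with UUO was not called different between genotypes for any of the 10 genes, where 0.106% of all genes were called, and 0 had an unadjusted p under 0.05 for this interaction. Its largest values were -0.53 ± 0.36 for Acss1 (SE, adjusted p = 0.718) and -0.30 ± 0.46 for Slc25a1 (adjusted p = 0.928). The interval of the interaction of Acss1 ran from -1.31 to 0.25.

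Other genes of the pathway were taken from 4 lists. Of 22 tested genes of acetate, citrate and acetyl-CoA supply, 20 were called lower and 0 higher with UUO in Acot12+/+ mice, and 21 and 0 in Acot12-/- mice, with medians of -1.50 and -1.68. Of all genes, 23.9% were called lower and 23.6% higher in Acot12+/+ mice, and 27.2% and 26.6% in Acot12-/- mice. These shares apply to each list with the values as deposited. With library totals over all symbols made equal, 13 and 17 of the 22 were called lower and 0 higher. Of all 13243 genes tested, 1047 were then called lower and 7427 higher in Acot12+/+ mice, and 1552 and 6078 in Acot12-/- mice. These counts apply to each list with equal totals. The largest falls in Acot12+/+ mice were those of Slc16a7, a monocarboxylate transporter, from 57.2 ± 15.3 to 4.40 ± 0.72 FPKM (log2 fold change -3.41), Slc5a8, a sodium-coupled monocarboxylate transporter, from 111 ± 28.2 to 13.7 ± 5.93 FPKM (-2.97), and Mdh1, cytosolic malate dehydrogenase, from 1156 ± 159 to 221 ± 53.8 FPKM (-2.40). In Acot12-/- mice Slc16a7 (-3.17), Slc5a8 (-2.77) and Slc5a12, another sodium-coupled monocarboxylate transporter (-2.58), fell most. Acss1 and Acss2 thus fell alongside most genes of this list, and between genotypes in CL kidneys 0 of its 22 genes were called.

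Regulators of lipid synthesis had calls in both directions, as all genes did. Of 21 tested, 4 were called higher and 8 lower with UUO in Acot12+/+ mice and 4 and 7 in Acot12-/- mice, with medians of -0.13 and -0.21. After totals were made equal, 9 were higher and 2 lower in Acot12+/+ and 6 and 4 in Acot12-/- mice. Insig1, which holds the sterol-sensing complex in the endoplasmic reticulum, fell from 28.6 ± 3.24 to 9.11 ± 2.75 FPKM in Acot12+/+ (log2 fold change -1.58) and by 1.71 on the log2 scale in Acot12-/- mice. Prkaa2, a catalytic subunit of AMP-activated protein kinase, which inactivates the acetyl-CoA carboxylases, fell in both genotypes (-1.30 and -1.80), as did Cobll1 (-1.12 and -1.41). Mid1ip1, which promotes assembly of acetyl-CoA carboxylase into filaments, rose by 1.22 and 1.03, and Trib3, a pseudokinase induced by cell stress, by 1.43 and 1.63. The AMP-activated protein kinase subunits Prkab2 (0.64 and 0.44) and Prkab1 (0.51 and 0.48) rose in both genotypes.

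Thrsp, a protein that works with Mid1ip1 and is induced with lipid synthesis, was the only gene of this list called between genotypes in CL kidneys. It was at 8.58 ± 1.51 FPKM in Acot12+/+ and 2.42 ± 1.75 FPKM in Acot12-/- CL kidneys (log2 fold change -1.60, adjusted p = 0.0199, and 0.106 when only CL libraries were fitted) and fell with UUO in Acot12+/+ mice (-1.47, adjusted p = 0.00339). The call between genotypes was lost without any 1 of 4 of the 12 libraries (adjusted p at most 0.0784). Srebf1, which encodes the sterol-regulated transcription factor of lipid synthesis, and Mlxipl, which encodes its carbohydrate-responsive counterpart, were picked out after their values were seen. Neither was called with UUO, at 0.32 and -0.22 in Acot12+/+ (adjusted p = 0.396 and 0.489) and 0.46 and 0.09 in Acot12-/- mice (adjusted p = 0.218 and 0.793).

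Of 20 tested genes of elongation, desaturation and mitochondrial fatty acid synthesis, 11 were called lower and 0 higher with UUO in Acot12+/+ mice, and 14 and 1 in Acot12-/- mice, with medians of -0.63 and -0.79. Equal totals gave 4 lower and 5 higher in Acot12+/+ and 5 and 2 in Acot12-/- mice. Elovl2, which elongates polyunsaturated fatty acids, fell from 16.4 ± 2.46 to 5.33 ± 0.41 FPKM in Acot12+/+ (log2 fold change -1.45) and from 26.0 ± 4.56 to 5.75 ± 0.65 FPKM in Acot12-/- mice (-1.99). Cbr4, of mitochondrial fatty acid synthesis, fell in both genotypes (-1.41 and -1.19), as did Hacd2, a dehydratase of the elongation cycle (-1.27 and -1.55), and Fads2, a front-end desaturase (-0.67 and -1.55). Hacd4 rose by 0.97 in Acot12-/- mice and was not called in Acot12+/+ mice (-0.14), a difference that was not called either (interaction adjusted p = 0.158). In CL kidneys 1.12% of all genes were called higher in Acot12-/- mice. Of the 20, 2 were called between genotypes there, both higher in Acot12-/- mice. They were Elovl2 (0.63, adjusted p = 0.0474) and Elovl5, also an elongase of polyunsaturated fatty acids, at 41.2 ± 8.20 against 26.4 ± 2.66 FPKM (0.61, adjusted p = 0.044). Both calls were lost when only CL libraries were fitted (adjusted p = 0.255 and 0.253), with library totals made equal (0.116 and 0.114) and, for each gene, without any 1 of 10 of the 12 libraries.

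Glycerolipid synthesis, which joins fatty acids to glycerol, had 14 tested genes. With UUO 7 were called lower and 1 higher in Acot12+/+ and 8 and 1 in Acot12-/- mice, with medians of -0.67 and -0.90. With equal totals these were 5 lower and 6 higher in Acot12+/+ and 6 and 3 in Acot12-/- mice. The largest falls were those of Mogat1, a monoacylglycerol acyltransferase, from 154 ± 26.5 to 36.4 ± 18.8 FPKM in Acot12+/+ mice (log2 fold change -2.16), Gpd1, which makes glycerol phosphate (-1.67), and Mogat2 (-1.64). In Acot12-/- mice Mogat2 (-2.41), Mogat1 (-2.39) and Dgat2, which completes triacylglycerol synthesis (-1.99), fell most. Agpat4, an acylglycerolphosphate acyltransferase, rose from 3.17 ± 0.34 to 8.71 ± 0.46 FPKM in Acot12+/+ (1.22) and by 1.56 on the log2 scale in Acot12-/- mice. Between genotypes 0 of the 14 were called in CL kidneys.

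**Figure D5:**
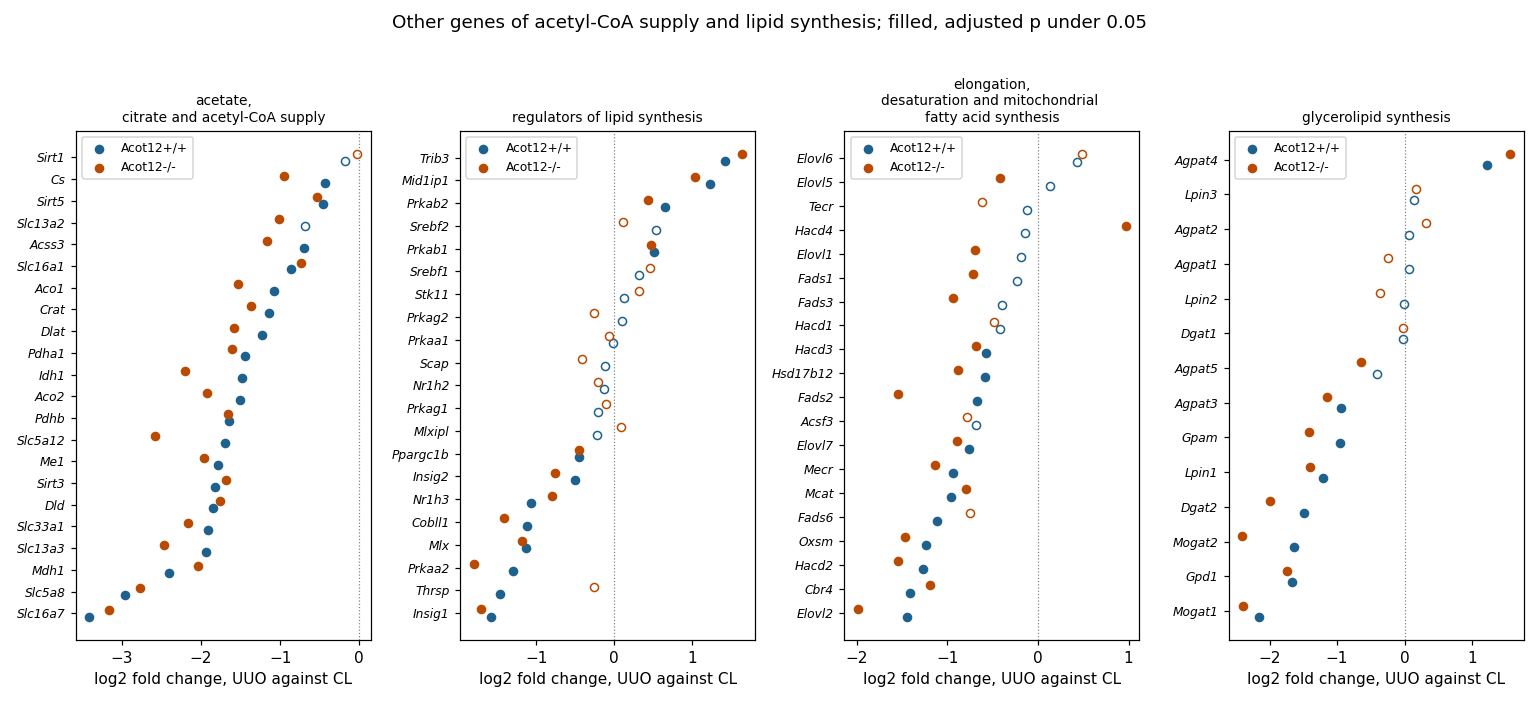
Log2 fold changes of FPKM + 1 for UUO against CL (x axis) of the tested genes of 4 lists, 1 panel a list, with Acot12+/+ in blue and Acot12-/- in orange. Points are filled where the adjusted p was under 0.05. In the list of acetate, citrate and acetyl-CoA supply 20 of 22 genes in Acot12+/+ and 21 of 22 in Acot12-/- mice are filled and lower, and the list of regulators holds filled points on both sides of 0.

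Genes whose profile over the 12 libraries was most like that of a given one were found by the root mean square difference of centred log2 values among 12699 genes. They were Slc7a9 and Acaa2 for Acss1, at differences of 0.19 and 0.25, and Pdzk1 and Gys2 for Acss2, at 0.12 and 0.14. For Acly they were Tbc1d14 and Tfec, for Acaca Abcf2 and Ap3d1, for Acacb Klk1b3 and Brap, and for Fasn Abca2 and Hmgxb3. For Scd1 they were Nqo1 and Hao2, at 0.35 and 0.38, and for Mlycd Ndufv1 and Bckdha, at 0.10 and 0.12. Among the 10 genes themselves, Acly and Scd2 had the most similar profiles, with a difference of 0.26, and Acss1 and Acss2 differed by 0.35. The measure is small for any pair of genes that change little, so it is not comparable between flat and changing genes.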

How the data were processed

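RNA of kidney cortex was made into libraries with a directional kit and sequenced on a NovaSeq instrument, and trimming, mapping and normalization were done for the authors by a company. The submitters' processing notes name build mm10, and the aligner and gene model are not given in the sources used here. The authors deposited 1 table of FPKM values per library, a unit read here from the values, since low values rise in equal steps that shrink with transcript length. The steps gave depths of about 12300000 to 23000000 fragments.

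The 10 genes, the pathway and marker lists and the tests were chosen with earlier results of these data known. Genes with at least 1 FPKM in at least 3 libraries were tested, and 28 symbols listed at 0 in a library while another of the same group had at least 10 FPKM were left out, leaving 13243. Values were tested as log2(FPKM + 1) with limma 3.58.1 in R 4.3.3 over all 4 groups with a variance trend, and p-values were adjusted over all genes by Benjamini-Hochberg and called under 0.05. A fold change on this scale understates that of low genes. Scripts were tested on simulated data. Same-numbered UUO and CL libraries of a genotype deviated together from their group means (r over genes 0.13, 0.36 and 0.33 in Acot12+/+, 0.32, 0.19 and 0.32 in Acot12-/-), so a fit with the replicate number as a block was an alternative.

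Named genes were the 10, Acot12, up to 3 called genes that rose and 3 that fell most per list and comparison, and the 2 nearest profiles of each, which for Scd2 and Slc25a1 are not reported here. Positions are from GENCODE vM21 (mm10), start regions from RefSeq (GRCm38.p6). The lists covered 4 pathways, and markers of proximal, other and injured tubule, macrophages, lymphocytes, fibroblasts, endothelium and adipocytes. Alternatives were the pseudocount, the filters, 3 scalings, the variance trend, the groups fitted, the block and each library left out.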

Additional observations from a re-analysis of the deposited data

How the results depend on the processing

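Of 1040 refitted changes of the 10 genes, 949 kept their direction and side of the threshold, 17 lost and 20 gained a call and 54 changed sign. With equal totals the 5 called with UUO in Acot12+/+ mice stayed 5 in number but as 3 lower and 2 higher, Acaca and Slc25a1, over all symbols. The count of 6 called lower with UUO in Acot12-/- mice became 3 (Acss1, Acss2 and Acacb) with library totals of FPKM made equal, over all symbols or, a setting chosen after seeing the data because genes such as Kap dominate that total, over the tested genes, also 3. The count of 0 between genotypes in CL kidneys became 1 (Acss1) with equal totals over all symbols, and ran from 0 to 2 with 1 library left out, being 2 without Acot12-/- CL replicate 2 and 1 without Acot12-/- UUO replicate 2. With 1 library left out the counts for UUO were 4 to 7 in Acot12+/+ and 4 to 8 in Acot12-/- mice, and 0 between genotypes in UUO kidneys and for the interaction. A group left with 2 libraries was still tested with the spread shared by all 4 groups.

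Equal totals over all symbols turned the change with UUO in Acot12+/+ mice to 0.10 for Acly, 0.21 for Fasn and 0.34 for Scd2, and in Acot12-/- mice to 0.23 for Acaca, 0.0548 for Scd2 and 0.26 for Slc25a1. It turned the difference between genotypes to 0.0038 for Acly in CL and to -0.0179 for Acss2 and -0.0493 for Acacb in UUO kidneys. Over the tested genes these turned to 0.11 for Fasn and 0.22 for Scd2 in Acot12+/+ mice, to 0.19 for Acaca, 0.00026 for Scd2 and 0.21 for Slc25a1 in Acot12-/- mice, to -0.00093 for Mlycd in CL and to -0.0379 for Acacb in UUO kidneys. None of these 16 values was called, and making totals equal moves the median of all genes by its construction.

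With 1 library left out, values that changed sign, none of them called with that sign, ran for UUO from -0.0864 to 0.14 for Slc25a1 in Acot12+/+ and -0.77 to 0.0113 in Acot12-/- mice. Between genotypes in CL kidneys they ran from -0.11 to 0.0919 for Acly, -0.27 to 0.0818 for Acacb, -0.34 to 0.20 for Fasn, -0.22 to 0.60 for Scd1, -0.13 to 0.22 for Scd2 and -0.27 to 0.53 for Mlycd. In UUO kidneys they ran from -0.056 to 0.33 for Acss2, -0.21 to 0.0275 for Acly, -0.40 to 0.27 for Scd1, -0.13 to 0.0176 for Scd2 and -0.11 to 0.12 for Slc25a1. For the interaction they ran from -0.20 to 0.0379 for Acly, -0.0439 to 0.31 for Acacb, -0.41 to 0.14 for Fasn, -0.63 to 0.19 for Scd1, -0.28 to 0.0727 for Scd2 and -0.26 to 0.54 for Mlycd.

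With the replicate number as a block, which pairs the 2 kidneys of a number, 5 and 6 of the 10 genes were called with UUO and 0 in the other 3 comparisons, as without it. The UUO comparisons and the interaction had a term for each pair, and the comparisons of genotypes a correlation within pairs. Over all genes the block took the interaction calls from 14 to 83. Fitting only the CL libraries took the calls between genotypes over all genes from 593 to 1, and equal totals to 329 over all symbols or 391 over tested genes. They ran from 187 to 2918 with 1 library left out. The interaction calls ran from 0 to 899 with 1 library left out and were 0 with equal totals or no filter on low values and 8 without the variance trend. The 2 genes called between genotypes in UUO kidneys, Acot12 among them, became 0 with a pseudocount of 0.1, without either filter, with only UUO libraries fitted or with the block. Depth limits Acacb most, with about 130 fragments behind its lowest value.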
